A study of Mus musculus with 2 samples.

Results

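Xcr1+ conventional dendritic cells of dystrophic mouse muscle were examined in 2 single cell RNA-seq libraries, made from sorted live mononuclear cells of the hind limbs. The Ctrl library came from mdx mice, which lack dystrophin and model Duchenne muscular dystrophy, with the Pax7CreERT2 and R26YFP alleles and Yy1+/+. The dKO library came from mdx mice with the same Pax7CreERT2 and R26YFP alleles and Yy1 f/f, in which tamoxifen had removed Yy1, a zinc finger transcription factor gene, from muscle stem cells (MuSCs), since Cre was driven by the Pax7 locus. Both groups received tamoxifen, as the study's methods describe it, although GEO's labels give Ctrl as untreated. Muscles of young adults were collected a month later and cells of several mice were pooled, so each group is a single library and the differences below carry neither a replicate check nor a test. The deletion was aimed at MuSCs, not at the dendritic cells. Members were chosen by measured values. A cell was a member if it held at least 500 genes, at least 10 UMIs (unique molecular identifiers, each standing for 1 captured RNA molecule) of Cd74, UMIs of at least 2 of the 4 genes Xcr1, Clec9a, Wdfy4 and Itgae, fewer than 10 UMIs of C1qa, C1qb and C1qc together, and 0 UMIs of Pdgfra, Cdh5, Cd3e and Cd79a. The rule found 76 cells, 45 of the 4335 Ctrl cells and 31 of the 3329 dKO cells with 500 genes.

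Dendritic cells take up material in tissues, carry it to lymph nodes and present it to T cells. The Xcr1+ subset, conventional dendritic cells type 1 (cDC1), depends on the transcription factors Irf8, Batf3 and Id2 and is known for cross-presentation, the loading of peptides from engulfed dead cells onto MHC class I for CD8+ T cells. Xcr1 is the receptor of the chemokine Xcl1, Clec9a is a receptor for actin exposed on dead cells, Wdfy4 is needed for cross-presentation, and Itgae encodes the integrin CD103.

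In Ctrl, members were 1.04% of all cells (0.758 to 1.39). In dKO they were 0.931% (0.634 to 1.32), and the difference of -0.107 percentage points had an interval from -0.550 to 0.361 that includes 0. Every interval given here is at 95% and stands for counting error alone. Shares, levels and ratios have exact intervals and a difference of shares has Newcombe's. Of cells with 10 or more Cd74 UMIs, members were 4.46% of 1009 in Ctrl (3.27 to 5.92) and 3.83% of 809 in dKO (2.62 to 5.4). Set against themselves plus Cd209a+ cells, they were 44.6% of 101 in Ctrl (34.7 to 54.8) and 43.1% of 72 in dKO (31.4 to 55.3). The Cd209a+ cells passed the same limits with at least 1 Cd209a UMI and were not members. Depth per member ran from 1815 to 21569 UMIs in Ctrl (median 11709) and from 2117 to 32185 in dKO (median 10719), with medians of 2571 and 2570 genes. The members held 540014 and 379023 UMIs in all. The libraries shared 7 barcodes, none of them a member's.

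All 4 markers were present in 16 Ctrl and 10 dKO members, 3 in 15 and 14, and 2 in 14 and 7. Just outside the rule lay 56 Ctrl and 47 dKO cells with 1 marker. These neighbours had medians of 0 Irf8 UMIs in both libraries and 31.5 and 34 Cst3 UMIs, against medians of 3 and 6 Irf8 UMIs and 210.5 and 202 Cst3 UMIs in the members with 2 markers. The C1q limit alone kept out 2 Ctrl cells and 0 dKO cells, the Cd74 limit 2 and 2, and the 4 excluded genes 1 and 1. Both Xcr1 and Clec9a were present in 26 Ctrl and 22 dKO members, and neither in 4 and 0. The levels of the 4 genes chose the cells and are given only as a description, in CPM, the UMIs of a gene scaled to a common total over the members of a library. Xcr1 (chromosome 9, 123852315 to 123862029 on the minus strand of GRCm38, GENCODE M21) stood at 222 CPM in Ctrl (184 to 266) and 251 CPM in dKO (203 to 306). Clec9a stood at 156 and 193 CPM and Wdfy4 at 379.6 and 361 CPM. Itgae stood at 139 CPM in Ctrl (109 to 174) and 55.4 CPM in dKO (34.3 to 84.7), and its UMIs lay in 29 of 45 and 13 of 31 cells. With each cell thinned to 2000 UMIs it was detected in 25% of the Ctrl members (11 of 44) and 25.8% of the dKO members (8 of 31). Its ratio ran from 0.338 to 0.912 over the alternative settings.

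Yy1 itself had 64 and 52 UMIs in the members, found in 30 and 21 cells, at 119 CPM in Ctrl (91.3 to 151) and 137 CPM in dKO (102 to 179.9), a ratio of 1.16 (0.787 to 1.7), so a loss in the dendritic cells was not seen at this depth. Ratios are dKO to Ctrl throughout, unless a comparison with other cells is named, and each is followed by its interval. In MuSCs (cells with Pax7 or Myf5 and without Pdgfra, Cdh5 and Ptprc) the library labelled dKO held 4 Yy1 UMIs in 27 cells and Ctrl 286 in 85 cells, a ratio of 0.033 (0.00893 to 0.0854).

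The label was then checked on cDC1 genes that the rule had not used. Of 17 such genes, 15 had an entry in the files and 14 had at least 20 UMIs in the members of each library. Cd8a, given below, did not reach this limit. Since the limit was set on the members, a gene low in them could not enter the count. All 14 were at 2-fold or more above Cd209a+ cells (56 in Ctrl, 41 in dKO) in both libraries, and 13 above C1q-high macrophages (569 and 452 cells, 10 or more C1q UMIs). As background, 6.75% of 2296 genes lay at 2-fold or more above Cd209a+ cells in both libraries and 12.3% above C1q-high macrophages. Irf8 was found at 0 to 68 UMIs per cell in Ctrl (median 12) and 2 to 86 in dKO (median 15). It reached 1328 CPM in Ctrl (1232 to 1429) and 1398 CPM in dKO (1282 to 1523), against 92 and 26.3 CPM in Cd209a+ cells and 215 and 207 CPM in macrophages. It was found in 40 of 45 Ctrl and 31 of 31 dKO members, while 10.1% and 10.5% of fibro/adipogenic progenitors (FAPs), stromal cells that should lack it, carried a UMI at median depths of 12763 and 12913.5 UMIs. Naaa, a lysosomal amidase gene, stood at 972 and 1029 CPM against 165 and 176 CPM in Cd209a+ cells. Tlr3, the sensor of double-stranded RNA, stood at 92.6 and 103 CPM and was at 0 UMIs in the Cd209a+ cells of both libraries. Snx22 (44.4 and 87.1 CPM) and Gcsam (50 and 87.1 CPM) were also at 0 there.

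**Figure D1:**
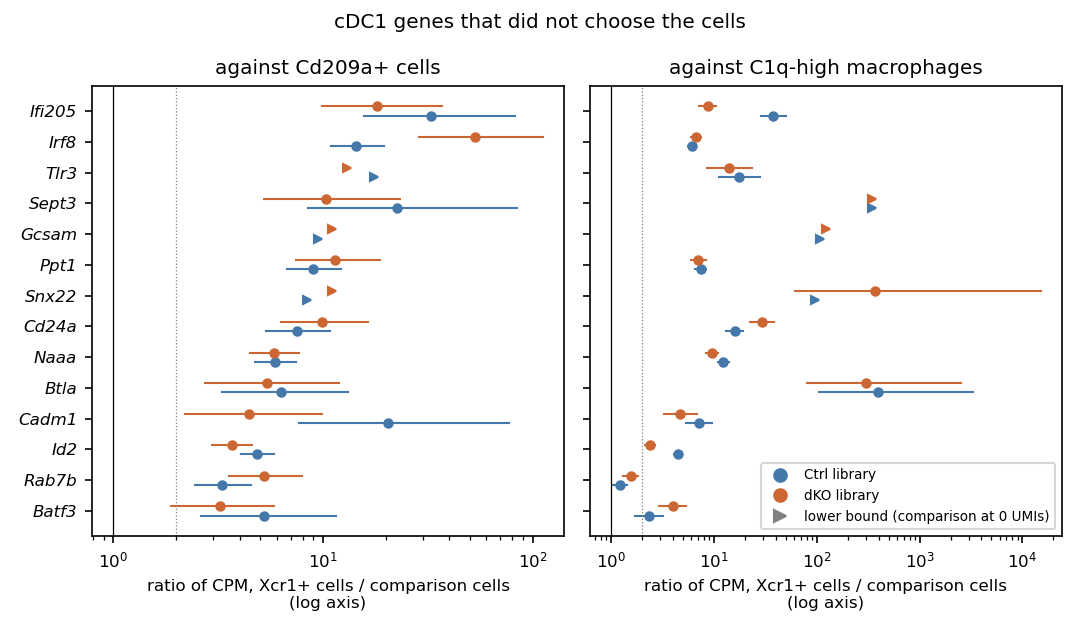
Ratio of CPM (log axis) between Xcr1+ dendritic cells and Cd209a+ cells (left) or C1q-high macrophages (right) for the 14 cDC1 genes that did not choose the cells, 1 point per library with its 95% counting interval. Triangles, labelled as lower bounds, are ratios against 3 counts where the comparison cells held none, drawn without their intervals. All points on the left lie right of the dotted line at 2-fold, and on the right only Rab7b lies left of it.

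Batf3 stood at 92.6 CPM in Ctrl (68.7 to 122) and 153 CPM in dKO (116 to 198), a dKO to Ctrl ratio of 1.65 (1.11 to 2.46). Id2 stood at 1287 and 1021 CPM, 0.793 (0.699 to 0.9). Ppt1, a lysosomal thioesterase gene, stood at 841 and 662 CPM with a ratio of 0.788 (0.672 to 0.921). Rab7b (333 and 427 CPM) was close to its macrophage level of 274 and 276 CPM. Of the general dendritic cell genes, Flt3, the receptor of the growth factor that dendritic cells need, stood at 119 and 89.7 CPM against 1.24 and 0.472 CPM in macrophages, while Zbtb46 was shallow with 10 and 12 UMIs. Cst3, which encodes the protease inhibitor cystatin C, ranged over 15 to 566 UMIs per cell in Ctrl (median 197) and 5 to 937 in dKO (median 220). Its level was 18886 CPM in Ctrl (18522 to 19257) and 22342 CPM in dKO (21868 to 22823), against 3218 and 3862 CPM in Cd209a+ cells. Itgax, the gene of CD11c, stood at 102 and 50.1 CPM (0.492, 0.276 to 0.842). Its dKO to Ctrl ratio was 0.475 (0.41 to 0.548) in macrophages and 0.762 (0.501 to 1.14) in Cd209a+ cells. Cd8a had 2 and 0 UMIs.

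Marker lists of T and NK cells, B cells and MuSCs held few UMIs, while those of monocytes, macrophages, FAPs and Cd209a+ cells held more. Cd209a was found in 2 Ctrl members (11 UMIs) and 0 dKO members, Fcgr1 had 0 and 1 UMIs, Adgre1 6 and 0 UMIs, the T and NK cell list 0 and 1 UMIs, the B cell list 2 and 0, and the MuSC list 0 and 0. The macrophage list summed to 311 and 211 CPM, of which Apoe and Cd68 gave most, and the plasmacytoid list to 79.6 and 39.6 CPM, with Klk1 and Ly6d at 0. The monocyte list summed to 1015 and 1050.1 CPM, mostly Plac8 and Ccr2, near its 1117 and 1275 CPM in macrophages. FAP transcripts summed to 357 and 269 CPM and endothelial ones to 83.3 and 2.64 CPM, 71.1% of the Ctrl UMIs in 1 cell. The Cd209a+ list summed to 381 and 190.0 CPM. Neutrophil transcripts lay mostly in 1 Ctrl member, which held 401 S100a8 UMIs and 98.4% of the neutrophil list's 1063 Ctrl UMIs, with 0 Irf8 UMIs. No neutrophil UMI was found in the dKO members, and macrophages also differed, with S100a8 at 431 and 6.61 CPM. Without that cell the interferon, both MHC, maturation, stress and cell cycle list ratios stayed within their counting intervals. Macrophage, FAP, endothelial and Cd209a+ transcripts were lower in the dKO members, and their part in the results was not tested. By doublet score 1 Ctrl and 0 dKO members ranked among the highest 7.5% of their library. Xist had 0 UMIs in the members, and Y-linked Ddx3y was present in both libraries (35 and 38 UMIs).

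Genes highest against Cd209a+ cells, by the smaller ratio of both libraries, were led by Xcr1 and Clec9a, which chose the cells. Dnase1l3, a DNase that digests DNA of dead cells, followed with ratios of 23 and 51.2, but it lay in 3 Ctrl and 5 dKO members and 86.4% and 88.2% of its UMIs were in 1 cell. More widely spread were Ifi205 (ratios 32.7 and 18.2, 34 and 31 cells), Sept3 (22.5 and 10.4), Agpat3 and Gpr141b, an orphan receptor gene. Cd209a+ cells held 0 UMIs of Gpr141b and Agpat3. Against 3 counts Gpr141b was 16.7-fold and 13.4-fold higher (exact lower ends 13.1 and 10.4) and Agpat3 10.1-fold and 10-fold (7.71 and 7.68). Cenpf and Ube2c, genes of mitosis, and Pla2g16 and Cxcl9 were also among these 15. Against macrophages Sept3, Btla, Gpr141b, Klrb1b, Kctd14, Gcsam, Flt3 and Snx22 stood beside Xcr1 and Clec9a. Btla, an inhibitory receptor gene, reached 122 and 142 CPM against 0.309 and 0.472 CPM. Klrb1b was far above macrophages in the members (236 and 152) but near its level in Cd209a+ cells, at 109 and 179 CPM against 109.7 and 210.2 CPM. Since a gene needed 20 UMIs in the members of each library, genes low in the members mostly did not enter these comparisons, and the counts of lower genes are not set beside those of higher ones. Clec7a, a fungal glucan receptor gene, was one of the listed genes that were low, at 44.4 and 68.6 CPM against 490.3 and 439 CPM in Cd209a+ cells.

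MHC class II transcripts were near equal in the 2 libraries. The list of 14 genes, which leaves out Cd74, summed to 29151 CPM in Ctrl and 29436 CPM in dKO, a ratio of 1.01 (0.985 to 1.03), and at 0.941 it lay below 1 when scaled to the median ratio of all genes. H2-Ab1 stood at 9999.7 CPM in Ctrl (9735 to 10270.1) and 10089 CPM in dKO (9772 to 10414) and H2-Aa at 8692 and 8759 CPM, with ratios of 1.01 and 1.01. Over cells the list ran from 7427 to 51170 CPM in Ctrl (median 27493) and from 11809 to 55875 in dKO (median 26656), and the ranges overlapped. Of 13 list genes with 50 UMIs, 7 had a ratio above 1 and 6 below, against 61.1% and 38.9% of all genes with 50 UMIs. H2-Eb1, at 1.08 (1.02 to 1.13), was the 1 gene with an interval above 1. The 3 genes with intervals below 1, where 7.46% of all genes stood, take part in peptide exchange. H2-DMa, a subunit of the peptide exchange factor, stood at 920.3 and 615 CPM with a ratio of 0.668 (0.569 to 0.782), H2-DMb2 at 94.4 and 52.8 CPM with 0.559 (0.316 to 0.954), and H2-Oa, which restrains that factor, at 100.0 and 42.2 CPM with 0.422 (0.226 to 0.749). H2-DMb1, at 0.981 (0.843 to 1.14), and H2-Ob, at 0.757 (0.508 to 1.11), had intervals that include 1, and once each cell was thinned to 2000 UMIs H2-DMb2 was at 1.42 and H2-Oa at 0.946. Ciita, the activator of these genes, stood at 63 and 81.8 CPM.

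Genes of MHC class I and cross-presentation had a higher sum in dKO. The 27 genes summed to 9035 and 11389.8 CPM, a ratio of 1.26 (1.21 to 1.31), or 1.17 scaled to the median ratio. Of the genes, 18 of the 21 with 50 UMIs had a ratio above 1, 8 of them with an interval above 1. Of all 2238 genes with 50 UMIs, 61.1% had a ratio above 1 and 13.4% an interval above 1. The median log2 ratio of the list was 0.19, beside 0.10 for all genes. B2m, the light chain of class I, was found at 1 to 49 UMIs per cell in Ctrl (median 11) and 0 to 73 in dKO (median 18). It stood at 1117 CPM in Ctrl (1029 to 1209) and 1736 CPM in dKO (1606 to 1874), 1.55 (1.39 to 1.74). H2-K1 (1.43, 1.26 to 1.62), Tap1, a subunit of the peptide transporter (1.54, 1.16 to 2.04), Psme2, an activator of the proteasome (1.61, 1.3 to 1.98), Psmb10, a subunit of the immunoproteasome (1.94, 1.33 to 2.85), and Calr, which encodes calreticulin (1.43, 1.24 to 1.64), had intervals above 1. Thinned to 2000 UMIs per cell Psmb10 was at 1.16. Psmb8, Psmb9, Tap2 and Rab43 lay between 1.01 and 1.14. Cybb, the oxidase subunit of phagosomes, was at 0.285 (0.14 to 0.535), but it lay in 6 and 4 cells with 60% of the Ctrl UMIs in 1 cell. The same list was at 1.17 (1.12 to 1.22) in Cd209a+ cells and 1.36 (1.35 to 1.38) in macrophages. Reads can be split between near-identical class I genes, so single H2-Q and H2-T members are uncertain.

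**Figure D2:**
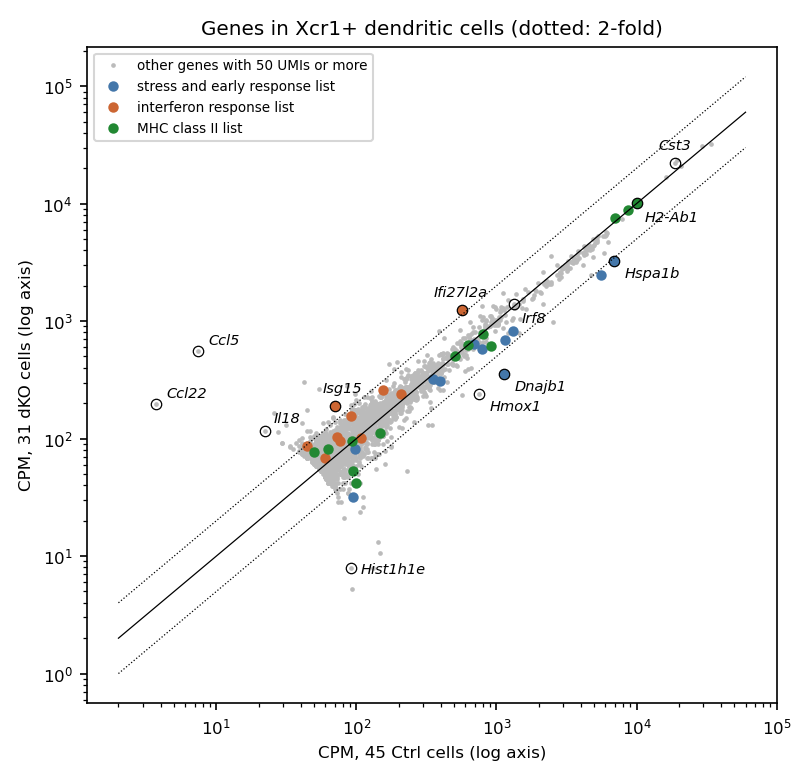
CPM of each gene with at least 50 UMIs in the 45 Ctrl (x axis) and 31 dKO (y axis) Xcr1+ dendritic cells, both on log axes, with genes at 0 in a library left out; the solid line marks equal levels and the dotted lines 2-fold. Stress and early response genes lie below the solid line, interferon genes mostly above it, and abundant MHC class II genes on it.

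Across all genes, 52 of 2238 (2.32%) were at 2-fold or more higher in dKO and 45 (2.01%) lower, with intervals that exclude 1. In 26 of the 52 more than 25% of the dKO UMIs lay in 1 cell, and in 18 of the 45 more than 25% of the Ctrl UMIs did. All genes together were shifted by a median log2 ratio of 0.10 and ratios are given unscaled. Scaled to that median, 34 genes were 2-fold higher and 56 lower. Among genes with no such dominant cell, the highest was Mvp, the major vault protein gene, at 33.3 and 87.1 CPM (2.61, 1.43 to 4.93). Lgals9, the gene of galectin-9, stood at 33.3 and 84.4 CPM (2.53, 1.38 to 4.79) and Nras at 37 and 92.3 CPM (2.49, 1.4 to 4.56). Ciao2b, Cep350, Stk38, Phf3 and Hnrnpul1 lay between 2.22 and 2.51. The other 2 were interferon-inducible genes that are on no list here, Slfn5 (98.1 and 240.1 CPM, 2.45, 1.72 to 3.5) and Ifi211 (196 and 449 CPM, 2.28, 1.78 to 2.94), the latter of a family with near-identical copies. The lowest was Hist1h1e, a linker histone gene, with 49 and 3 UMIs in 16 and 3 cells (0.0872, 0.0174 to 0.27). It was below 1 in macrophages (0.456, 0.33 to 0.621), endothelial cells (0.234, 0.118 to 0.422) and FAPs (0.821, 0.716 to 0.942) too. In Cd209a+ cells its interval included 1 (0.866, 0.48 to 1.52). Mcm3 and Mcm6, subunits of the replication helicase, were at 0.259 (0.105 to 0.556) and 0.373 (0.173 to 0.737), and Bcl2l11, which encodes the pro-apoptotic protein Bim, at 106 and 23.7 CPM (0.225, 0.0979 to 0.458). Saraf, a brake on calcium entry, was at 0.377 (0.227 to 0.602). Thinned to 2000 UMIs per cell Mcm6 was at 0.852, Saraf at 0.71 and Bcl2l11 at 0.532, and Hist1h1e was at 0.379 among members with fewer than 3 cell cycle genes. Ier3, an early response gene on no list here, was at 0.237 (0.108 to 0.468). The other low genes, Bag3, Dnajb1, Hmox1 and Egr1, are given below, and of these Dnajb1 and Egr1 are on the stress and early response list.

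Stress and early response genes were lower in dKO. The list's 11 genes summed to 18485 CPM in Ctrl and 9585 CPM in dKO, a ratio of 0.519 (0.499 to 0.539). All 11 had a ratio below 1, 8 with an interval below 1 and 4 at 2-fold or more. Of all genes with 50 UMIs, 38.9% had a ratio below 1, 7.46% an interval below 1 and 2.01% were at 2-fold or more lower. The median log2 ratio of the list was -0.68, beside 0.10 for all genes. The inducible Hsp70 genes, near-identical copies between which reads can be split, were the most abundant. Hspa1b stood at 6889 CPM in Ctrl (6669 to 7114) and 3258 CPM in dKO (3079 to 3445), 0.473 (0.443 to 0.505), and Hspa1a at 5572 CPM in Ctrl (5375 to 5775) and 2491 CPM in dKO (2334 to 2655), 0.447 (0.415 to 0.481). Hspa1b was found at 0 to 361 UMIs per cell in Ctrl (median 51) and 0 to 219 in dKO (median 13), in 43 of 45 and 25 of 31 cells, and the ranges overlap. Dnajb1, the Hsp40 co-chaperone gene (chromosome 8, 83608193 to 83612653 on the plus strand of GRCm38), stood at 1137 and 354 CPM, 0.311 (0.256 to 0.375), Hsph1 at 0.622 (0.543 to 0.712) and Egr1 at 0.335 (0.163 to 0.637). Jun (0.596, 0.514 to 0.69), Fos (0.744, 0.63 to 0.878) and Atf3 (0.779, 0.616 to 0.98) were lower too, whereas the intervals of Junb, Zfp36 and Fosb include 1. Off the list, Bag3, an Hsp70 co-chaperone gene, was at 0.228 (0.135 to 0.367), and Hmox1, the heme oxygenase gene that oxidative stress and heme induce, at 752 and 237 CPM (0.316, 0.248 to 0.398).

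The cells differed widely within each library. Summed CPM of the list per cell ran from 738 to 50311 in Ctrl (median 15932) and from 511 to 32728 in dKO (median 5021). The ranges overlap, and at or above 10000 CPM, a level set after the values were seen, lay 27 of 45 Ctrl cells (60%) and 14 of 31 dKO cells (45.2%). In Cd209a+ cells 33.9% and 41.5% of cells reached this level, and in macrophages 33.6% and 38.7%. These shares are given without intervals, and the interval of the list's ratio leaves out the spread between cells. No single cell held more than 10.4% of the list's UMIs in either library. The list differed in direction among other cells, and the difference between cell types was not tested. It lay below 1, though nearer to it, in FAPs (0.869, 0.865 to 0.873) and in endothelial cells (0.901, 0.889 to 0.913). In Cd209a+ cells the list was at 11436 and 12568 CPM, 1.1 (1.06 to 1.14), and in macrophages at 8639 and 11196 CPM, 1.3 (1.28 to 1.31). Dnajb1 itself was at 1.41 (1.15 to 1.73) and 1.47 (1.35 to 1.61) there. Hmox1 was at 0.605 (0.532 to 0.687) in Cd209a+ cells and 1.05 (1.01 to 1.09) in macrophages. With 1 library per group, genotype and library cannot be told apart.

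**Figure D3:**
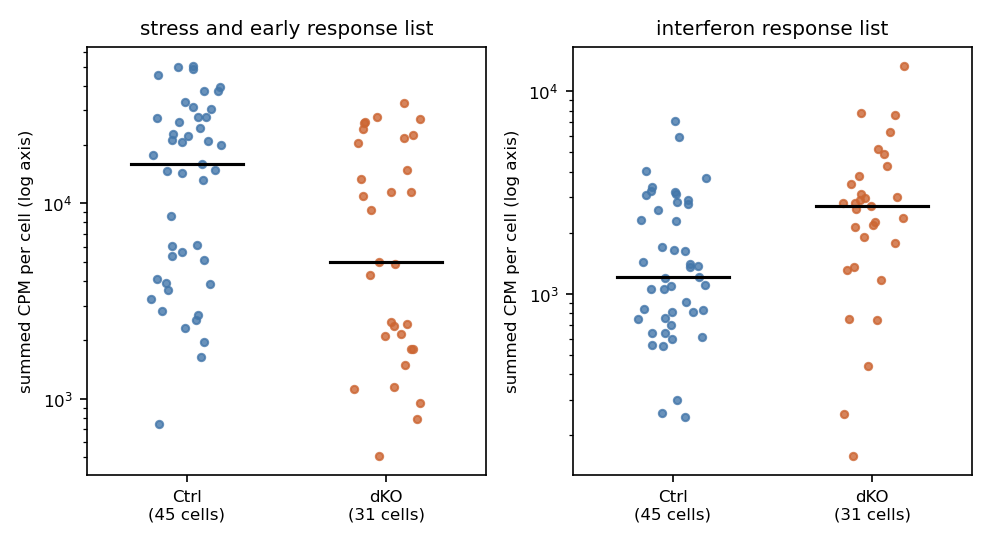
Summed CPM per cell (log axis) of the stress and early response list (left) and the interferon response list (right) in the 45 Ctrl and 31 dKO Xcr1+ dendritic cells, 1 point per cell, with a bar at the median. Medians are 15932 and 5021 CPM for stress genes and 1209 and 2716 CPM for interferon genes, and the ranges of the libraries overlap in both panels.

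Interferon response genes were higher in dKO, on few genes of the list. The list of 40 genes summed to 1870.3 and 3055 CPM, a ratio of 1.63 (1.5 to 1.78), with per cell medians of 1209 and 2716 CPM. Per cell it ran from 246 to 7123 CPM in Ctrl and from 159 to 13226 CPM in dKO, so the ranges overlap. The ratio was 1.22 among members with at least 3 markers and 1.27 among members with fewer than 3 cell cycle genes. Only 10 of the 40 reached 50 UMIs, of which 9 had a ratio above 1, 5 with an interval above 1 and 2 at 2-fold or more, against 61.1%, 13.4% and 2.32% of all genes. Their median log2 ratio was 0.63, beside 0.10 for all genes. Ifi27l2a, a small membrane protein gene, was found at 0 to 41 UMIs per cell in Ctrl (median 2) and 0 to 76 in dKO (median 14). It stood at 570.4 CPM in Ctrl (508 to 638) and 1251 CPM in dKO (1141 to 1368), a ratio of 2.19 (1.9 to 2.54), in 35 of 45 and 28 of 31 cells. Irf7, the transcription factor that amplifies the type I response, stood at 90.7 and 156 CPM (1.72, 1.15 to 2.56), Trim30a at 156 and 261 CPM (1.68, 1.24 to 2.27) and Zbp1, a nucleic acid sensor gene, at 44.4 and 87.1 CPM (1.96, 1.12 to 3.46). Without the 2 dKO members with over 10 Ccr7 UMIs Irf7 was at 1.08, and thinned to 2000 UMIs per cell Trim30a was at 1.06. Isg15, a ubiquitin-like modifier, stood at 70.4 and 190.0 CPM (2.7, 1.8 to 4.11), but 51.4% of its dKO UMIs lay in 1 cell and among members with fewer than 3 cell cycle genes the ratio was 0.996. Bst2 was at 1.13 (0.851 to 1.51).

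Of the 30 list genes under 50 UMIs, several had few UMIs in the members. Ifit1 had 1 and 0 UMIs, Ifit3 1 and 1 UMIs, Ifit2 4 and 6 UMIs, Oasl2 2 and 3 UMIs and Cmpk2 3 and 0 UMIs. Others had more, with Mx1 at 21 and 15 UMIs in 12 of 45 and 11 of 31 cells and Oasl1 at 17 and 24 UMIs in 8 and 5 cells. Mx1 stood at 38.9 and 39.6 CPM, against 30.1 and 47.3 CPM in Cd209a+ cells. Ifit3 was at 46 and 81.4 CPM in Cd209a+ cells and 45.1 and 161 CPM in macrophages. Rsad2, the viperin gene, stood at 22.2 and 21.1 CPM in the members, 117 and 89.3 CPM in Cd209a+ cells and 166 and 485 CPM in macrophages. The whole list was at 1.7 (1.59 to 1.82) in Cd209a+ cells and 2.5 (2.45 to 2.54) in macrophages. Gbp2, a guanylate-binding GTPase gene that interferon-gamma induces, was lower in the dKO members, with 38 and 7 UMIs (0.262, 0.0989 to 0.595), 42.1% of the Ctrl UMIs in 1 cell.

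Promoters of the list were searched for the core of the interferon-stimulated response element, GAAANNGAAA or its reverse complement TTTCNNTTTC, overlaps counted, in windows from 250 bases before to 50 after the start site (RefSeq, GRCm38.p6). Of the 40 genes 31 had an entry and 18 held the motif (58.1%), against 3.99% of 27025 genes. Of the 31, 7 reached 50 UMIs in the members, and of the 18, 4 did (Isg15, Stat2, Trim30a and Bst2). Shown are Isg15 (chr4:156200769-156201068, minus strand) and Trim30a (chr7:104465144-104465443, minus strand; 1 of 2 listed promoters), the 2 with the highest ratio, and Ifit1 (chr19:34640639-34640938, plus strand), the one under 50 UMIs with the highest summed level in the Cd209a+ cells of both libraries (70.8 and 249.6 CPM), each 5′ to 3′ on the gene's strand with the motif in capitals.
Isg15: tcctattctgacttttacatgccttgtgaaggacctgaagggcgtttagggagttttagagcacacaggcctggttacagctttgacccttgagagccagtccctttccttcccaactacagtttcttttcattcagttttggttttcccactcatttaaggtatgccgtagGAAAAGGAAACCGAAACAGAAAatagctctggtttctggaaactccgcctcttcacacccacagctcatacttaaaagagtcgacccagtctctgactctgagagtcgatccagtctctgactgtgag
Trim30a: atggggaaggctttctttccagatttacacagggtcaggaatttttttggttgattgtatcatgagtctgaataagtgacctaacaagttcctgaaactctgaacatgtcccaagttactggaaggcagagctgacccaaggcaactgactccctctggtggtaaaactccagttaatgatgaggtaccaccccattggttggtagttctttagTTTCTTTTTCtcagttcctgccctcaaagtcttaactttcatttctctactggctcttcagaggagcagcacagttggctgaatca
Ifit1: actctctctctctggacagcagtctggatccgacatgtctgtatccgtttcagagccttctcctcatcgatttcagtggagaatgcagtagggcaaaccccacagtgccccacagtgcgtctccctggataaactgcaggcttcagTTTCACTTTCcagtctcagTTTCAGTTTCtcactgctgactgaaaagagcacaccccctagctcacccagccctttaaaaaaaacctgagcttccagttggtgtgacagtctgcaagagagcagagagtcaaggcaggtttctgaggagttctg
Isg15 holds 3 overlapping matches, Ifit1 2 and Trim30a 1, so a match was found both in genes that the members carried and in Ifit1, with 1 and 0 UMIs in them. The matches are given as a description.

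Maturation genes, which dendritic cells switch on before they leave for lymph nodes, were higher in dKO, with the excess in 2 cells. The list of 26 genes summed to 904 and 1483 CPM (1.64, 1.45 to 1.86), but 1 dKO cell held 37% of the dKO UMIs, and per cell medians were 752 and 675 CPM. Without the 2 dKO cells that held more than 10 Ccr7 UMIs, the ratio was 0.926, and among members with at least 3 markers it was 1.01. The first of these 2 cells, of 18588 UMIs, held 17 UMIs of Ccr7, the receptor that leads to lymph nodes, 47 of the chemokine gene Ccl22, 60 of Il12b, a subunit of interleukin 12, 211 of Ccl5 and 39 of Cxcl9, with 4 Clec9a UMIs, 1 Wdfy4 UMI, 4 Irf8 UMIs and 0 Naaa UMIs. The second, of 12752 UMIs, held 16 Ccr7 and 24 Ccl22 UMIs, with 4 Xcr1, 24 Irf8 and 0 Ccl5 UMIs. In the Ctrl members Ccr7 had 5 UMIs in 4 cells, Ccl22 2 UMIs in 1 cell and Il12b none. Against 3 counts Il12b was 28.5-fold higher in dKO (exact lower end 22.5), from 1 cell. Fscn1, a migration gene of mature cells, had 1 and 1 UMIs, and Il4i1 none. Cd86, the co-stimulatory ligand, was more evenly spread, at 92.6 and 177 CPM (1.91, 1.3 to 2.81) in 22 and 21 cells, and Cd83 stood at 0.957 (0.768 to 1.19). Cd209a+ cells held more Ccr7, with 358 and 565 CPM.

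**Figure D4:**
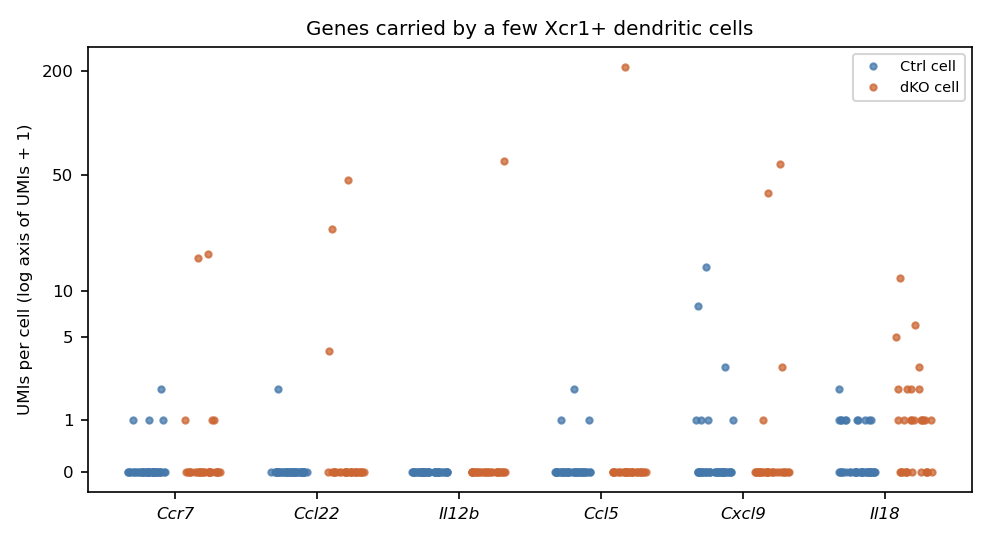
UMIs per cell (log axis of UMIs + 1) of 6 maturation, chemokine and cytokine genes in the 45 Ctrl and 31 dKO Xcr1+ dendritic cells, 1 point per cell, shifted sideways for sight. Of the 76 cells most hold 0 UMIs of each gene, the Il12b and dKO Ccl5 UMIs lie in 1 cell, and Il18 is spread over 18 dKO cells.

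Chemokine and receptor genes depended on few cells as well. The list of 20 was at 1.42 (1.29 to 1.57), with 48.2% of the dKO UMIs in 1 cell, and of the 8 genes with 50 UMIs 3 had a ratio above 1 and 5 below, against 61.1% and 38.9% of all genes. Of the 8, 3 were at least 2-fold higher in dKO and 1 at least 2-fold lower, against 2.32% and 2.01% of all genes. An interval lay above 1 in 3 and below 1 in 2, against 13.4% and 7.46% of all genes. The list was at 0.925 in Cd209a+ cells, 1.54 in macrophages and 1.37 in FAPs. Ccl5, a chemokine gene (chromosome 11, 83525778 to 83530518 on the minus strand of GRCm38), had 4 and 211 UMIs in 3 and 1 cells, the dKO cell being the first of the Ccr7-bearing cells above. Cxcl9, which attracts Cxcr3-bearing T cells, had 29 and 101 UMIs in 7 and 4 cells (4.96, 3.26 to 7.78), while Cd209a+ cells held none. Of the dKO UMIs, 58 lay in 1 cell and 39 in another, and the ratio ran from 3.08 to 9.18 over the alternatives. Cxcl9 was higher in dKO in macrophages (10.6, 8.18 to 13.8), FAPs (2.8, 2.58 to 3.03) and endothelial cells (2.03, 1.64 to 2.51) as well. Cxcl10 had 94.4% and 95.8% of its UMIs in 1 cell of each library. Cxcl16, a membrane-bound chemokine gene, was found in 28 and 21 cells at 113 and 227 CPM (2.01, 1.43 to 2.84). Cxcr4 was lower in dKO (87 and 34.3 CPM, 0.394, 0.196 to 0.74), and Ccr2 had an interval that includes 1 (0.973, 0.744 to 1.27). Cxcr3 was found at 38.9 and 55.4 CPM, with 1.77 and 0 CPM in Cd209a+ cells.

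Il18 was higher in dKO. It encodes a cytokine that acts with interleukin 12 on NK and T cells, and its UMIs numbered 12 in 11 of 45 Ctrl cells and 44 in 18 of 31 dKO cells, 22.2 and 116 CPM (5.22, 2.71 to 10.9), with 27.3% of the dKO UMIs in 1 cell. Over the alternatives the ratio ran from 3.03 to 9.94. In Cd209a+ cells the ratio was 1.06 (0.265 to 3.88) and in macrophages 1.62 (1.32 to 2). The list as a whole was at 1.14 (1.04 to 1.25). Il1b stood at 413 and 536 CPM (1.3, 1.07 to 1.58), below its 1535 and 3055 CPM in Cd209a+ cells. Tgfb1 was at 1.07 (0.687 to 1.65). Receptors of interferon and of GM-CSF had intervals that include 1, with Ifnar1 at 0.753 (0.458 to 1.21), Ifnar2 at 0.934 (0.661 to 1.31), Ifngr1 at 0.85 (0.664 to 1.08), Csf2ra at 1.18 (0.832 to 1.67) and Csf2rb at 1.12 (0.89 to 1.39). Csf1r had 13 and 0 UMIs. Among nucleic acid and pathogen sensors, at 1.26 (0.985 to 1.62) for the list, Tlr3 was at 1.11 (0.712 to 1.72) and Tmem173, the STING gene, at 1.99 (1.16 to 3.48). Tlr11 had 16 and 7 UMIs, Tlr12 4 and 1 UMIs, Tlr9 1 and 1 UMIs and Tlr7 none.

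Cycling cells formed a similar share of the members in both libraries. At least 3 of 10 cell cycle genes were found in 20% of the Ctrl members (9 of 45, 9.58 to 34.6) and in 19.4% of the dKO members (6 of 31, 7.45 to 37.5). Thinned to 2000 UMIs per cell, with 1 Ctrl cell left out as too shallow, these were 6 of 44 (13.6%, 5.17 to 27.3) and 4 of 31 (12.9%, 3.63 to 29.8). The thinned shares in Cd209a+ cells were 7.14% (4 of 56, 1.98 to 17.3) and 2.44% (1 of 41, 0.0617 to 12.9), intervals that overlap those of the members. They were 2.33% (1.25 to 3.96) and 2.04% (0.937 to 3.84) in macrophages and 2.69% (1.77 to 3.92) and 2.09% (1.3 to 3.17) in FAPs. The cell cycle list was at 1.82 (1.57 to 2.11), yet 1 dKO cell held 37.4% of the dKO UMIs, and the ratio was 1.33 without the deepest member of each library. Its median over single cells went the other way, at 82.3 CPM in Ctrl and 54.2 CPM in dKO. Ccnb2 stood at 17 and 49 UMIs, Tpx2 at 24 and 44 UMIs and Cenpf at 23 and 114 UMIs, all in 4 to 9 cells per library. Hist1h1e, Mcm3 and Mcm6, used when DNA is copied, were lower as given above, and Top2a was at 0.928 (0.65 to 1.31). Among members with fewer than 3 of the 10 genes the list was at 0.674, below 1.

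**Figure D5:**
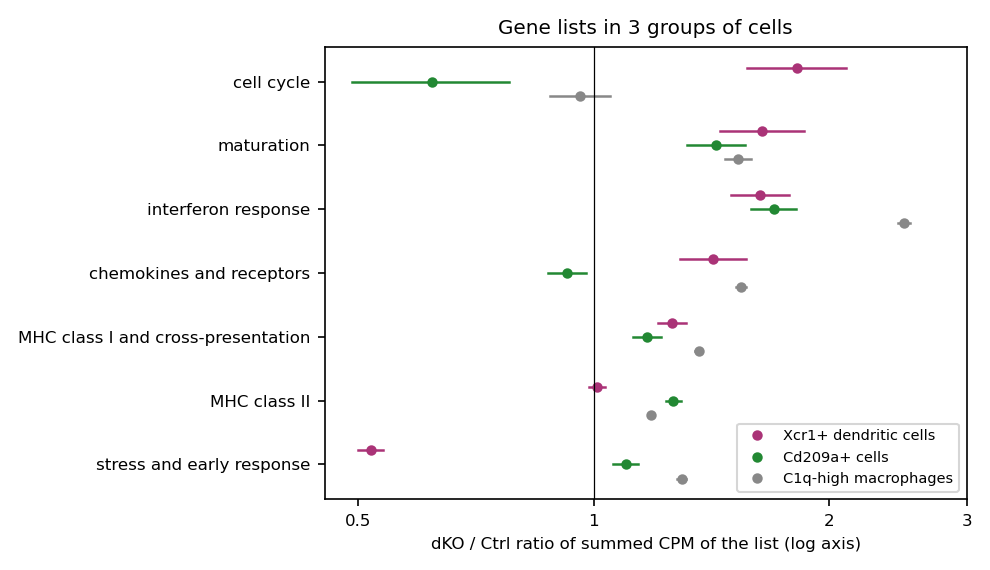
The dKO to Ctrl ratio of summed CPM (log axis) of 7 gene lists in Xcr1+ dendritic cells, Cd209a+ cells and C1q-high macrophages, with 95% counting intervals; the line marks 1. In Xcr1+ dendritic cells the stress list lies at 0.519, against 1.10 in Cd209a+ cells and 1.30 in macrophages, and the MHC class II list at 1.01, against 1.26 and 1.18.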

How the data were processed

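Live mononuclear cells of hind limb muscle were captured on a 10x Chromium system, 1 library per group, and sequenced on an Illumina platform. The authors deposited raw counts, that is UMIs per gene symbol and cell. The submitters' processing notes name Cell Ranger 7.0.0, Seurat 4.3.0, Cufflinks and the build mm10 (GRCm38), while the file headers give Cell Ranger 3.0.2. The annotation is not given in the sources used here. The files held 4527 Ctrl and 3483 dKO barcodes and 24984 symbols, 0 of them mitochondrially encoded, so a mitochondrial limit could not be applied. The limit of 500 genes left 4335 and 3329 cells, the numbers given in the study's results text (a figure legend gives another Ctrl number), and a limit of 200 genes and 1000 UMIs left 4295 and 3306. Doublets had been removed by the study in its own filter, and whether these files hold that filter is not known. Scrublet (scanpy 1.11.5) called 4 Ctrl and 14 dKO cells by its own threshold, too few to be used, so leaving out the 7.5% of cells with the highest scores was run as an alternative.

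UMIs of the members were summed per library and divided by their total to give CPM. Genes with 50 UMIs over both libraries entered the dKO to Ctrl comparison, and genes with 20 in the members of each library the comparison with other cells. Levels have exact Poisson intervals, shares exact binomial (Clopper-Pearson) intervals and ratios exact conditional binomial ones, all at 95%. They cover counting error only. With 1 library per group no test was run and no p-value is given. A ratio against 0 UMIs was set against 3 counts, and the lower end of its exact interval lies below it. The members, the 23 lists (268 genes, of which 6 were not analysed here) and the comparisons were chosen with earlier results of these data known. Named were the list genes, the 10 highest and 10 lowest dKO to Ctrl ratios among genes with no more than 25% of their UMIs in 1 cell of the higher library, the 15 and 10 genes highest against Cd209a+ cells and macrophages, and Yy1, Ccl5 and Tgfb1. Some genes that this rule names are not reported here. Alternatives changed the marker number, the C1q limit, the genes per cell, doublets, Cd209a-bearing, cycling and deepest members, depth, averaging, scaling and gene minimum. Those without the neutrophil-rich or the Ccr7-bearing members, and all those for the stress list, the cell cycle list and single genes, were chosen after seeing the data. The ratio and its interval were tested on simulated data. Analyses used Python 3.11.15, numpy 2.4.6, scipy 1.17.1 and pandas 2.3.3.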

Additional observations from a re-analysis of the deposited data

Results flagged for a closer look

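Between Xcr1+ dendritic cells and either Cd209a+ cells or C1q-high macrophages, 23 lists and 46 genes were set side by side, and in 21 such comparisons the dKO to Ctrl ratios lay on opposite sides of 1 with counting intervals that exclude 1 in both kinds of cell. Of these, 6 were of lists and 15 of 11 genes. The 46 genes included the 10 highest and 10 lowest in the Xcr1+ dendritic cells themselves. Bag3, Bcl2l11, Ier3, Dnajb1, Hmox1 and Egr1 were among those 10 lowest, so their side of 1 there was set by that choice. Hspa1a, Hspa1b, Dnajb1, Fos, Jun and Egr1 are on the stress list and are not separate from it. No such count was made over all genes. The difference between the cells was not tested, since each group had 1 library. The stress and early response list was at 0.519 in Xcr1+ dendritic cells, at 1.10 in Cd209a+ cells and at 1.30 in macrophages. It was below 1 in FAPs (0.869) and endothelial cells (0.901) as well. Among heat shock genes and their partners, Hspa1a was at 0.447 in Xcr1+ dendritic cells, at 1.11 in Cd209a+ cells and at 1.29 in macrophages. Dnajb1 was at 0.311, 1.41 and 1.47 in the same order. Hspa1b was at 0.473 in Xcr1+ dendritic cells and at 1.40 in macrophages, and Bag3 at 0.228 and 1.5.

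Among immediate early genes, Fos was at 0.744 in Xcr1+ dendritic cells, at 1.54 in Cd209a+ cells and at 1.15 in macrophages. Jun was at 0.596 in Xcr1+ dendritic cells and at 1.33 in Cd209a+ cells. Egr1 was at 0.335 in Xcr1+ dendritic cells and at 1.61 in macrophages, and Ier3 at 0.237 and 1.23. Bcl2l11, which promotes cell death, was at 0.225 in Xcr1+ dendritic cells, at 1.43 in Cd209a+ cells and at 1.38 in macrophages. H2-Oa was at 0.422 in Xcr1+ dendritic cells, or 0.946 with each cell thinned to 2000 UMIs, and at 1.64 in Cd209a+ cells, and Hmox1 at 0.316 in Xcr1+ dendritic cells and at 1.05 in macrophages.

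The cell cycle list was at 1.82 in Xcr1+ dendritic cells, where 1 dKO cell held 37.4% of its dKO UMIs, and at 0.621 in Cd209a+ cells. The chemokine and receptor list was at 1.42 in Xcr1+ dendritic cells, where 1 dKO cell held 48.2% of its dKO UMIs, and at 0.925 in Cd209a+ cells. It was above 1 in macrophages (1.54) and FAPs (1.37) as well. The marker list of Cd209a+ dendritic cells, which holds the gene that chose those cells, was at 0.498 in Xcr1+ dendritic cells and at 1.15 in Cd209a+ cells. The macrophage marker list was at 0.678 in Xcr1+ dendritic cells, at 0.775 in Cd209a+ cells and at 1.06 in macrophages.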

How the results depend on the processing

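The rarity of the cells limits every value, since 1 of 31 or 45 cells can hold most UMIs of a gene, and no count of cells or UMIs stands in for a second library. Values are log2 ratios of dKO to Ctrl unless named otherwise. No paired analysis was possible because each group has 1 library and no result comes from a test.

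The stress list stayed below 0 in all 12 alternatives, at -1.31 with 3 of the 4 markers required, -0.88 among members with under 3 cell cycle genes, -0.88 without the deepest member of each library, -0.77 when thinned to 2000 UMIs, -0.77 as the mean of each cell's CPM, -1.05 scaled to the median ratio and -1.05 without the 2 Ccr7-bearing dKO members. The interferon list was at 0.29 with 3 markers, 0.34 without cycling members and 0.55 without the Ccr7-bearing ones. The MHC class I list was at 0.26 without cycling members, 0.20 thinned and 0.23 scaled to the median, and the MHC class II list at 0.069 with 3 markers and -0.088 scaled to the median. The maturation list was at 0.021 with 3 markers and 0.31 without cycling members, and it turned to -0.11 without the Ccr7-bearing members, which held most of its excess. The cell cycle list was at 1.38 with 3 markers, 0.41 without the deepest members and 0.55 as a mean over cells, and it turned to -0.57 without cycling members, an alternative that removes the cells richest in these genes.

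The share of members among cells with 10 or more Cd74 UMIs differed by -0.628 percentage points. Genes 2-fold or more higher in dKO (52 as reported) numbered 34 without cycling members, 6 thinned, 34 scaled to the median, 236 at a minimum of 20 UMIs and 15 at 100. Genes lower (45 as reported) numbered 9 thinned, 187 at 20 UMIs and 17 at 100. Genes above Cd209a+ cells (155 as reported) numbered 101 without cycling members, 23 thinned and 69 at a minimum of 50 UMIs per library, and genes above macrophages (283 as reported) 49 thinned and 142 at 50 UMIs. Thinning, leaving out members and another minimum also changed how many genes entered. These counts are therefore not out of a common total, and a change in them is not a change in the share called. Of 453 alternatives for 38 single genes, 401 moved by less than the counting interval, 49 moved by more and 3 turned: Isg15 to -0.0053 without cycling members, H2-DMb2 to 0.51 thinned and Ccr7 to -0.10 without the Ccr7-bearing members. The cause was not tested where none is named.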
